A study of Mus musculus with 42 samples.

Results

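The 47 genes described here encode the machinery that copies DNA and the enzymes that supply its building blocks, and they were followed in mouse spleen over 14 days after an injection of CpG DNA. They were listed by gene symbol, and no measured value enters the rule that defines the set. A feature of the array counted for a gene where that gene was its only symbol, and the features of a gene were averaged. Of the 47 genes 46 were measured, through 72 features, among 15277 genes on the arrays, and Gins2 had no feature of its own. All arrays gave a value for 45 of the 46, Pole2 being the exception.

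Spleen RNA came from female BALB/c mice, whose age is not given. CpG mice received 400 µg of the CpG oligodeoxynucleotides (CpG ODN) 1555 and 1466 by the intraperitoneal route. Their spleens were collected either 3, 9, 24 or 72 hours later or 5, 7, 9 or 14 days later. Control ODN mice received 400 µg of the oligodeoxynucleotides 1612 and 1471 and were examined at 3 h, and untreated mice received nothing. CpG ODN are short DNAs with unmethylated CG dinucleotides, which the endosomal receptor TLR9 recognises, and the series asks how its activation alters gene expression in the short and the long term. The untreated group had 6 arrays and every other group 4. Each array compared spleen cDNA (Cy5) with a common mouse reference cDNA (Cy3), so a level is a log2 ratio of spleen over reference, and levels of different genes were not set against each other.

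A cell that is about to divide first loads a ring of MCM proteins onto its replication origins, a step called licensing, in which the origin recognition complex, Cdc6 and Cdt1 take part and which geminin restrains. The Cdc7 kinase with Dbf4, and Mcm10, Cdc45 and the GINS complex, then turn the ring into an active helicase. RPA coats the exposed single strands, primase with polymerase alpha starts each new strand, the clamp loader RFC places the sliding clamp PCNA, polymerases delta and epsilon extend the strands, and Fen1 with DNA ligase 1 joins the fragments of the lagging strand. Ribonucleotide reductase, thymidylate synthase, thymidine kinase 1 and dUTPase keep deoxynucleotides supplied. Most of these genes are transcribed in cycling cells through E2F factors, and the spleen of a mouse can hold cycling lymphocytes as well as red cell and myeloid precursors.

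Promoter sequence is shown for 6 of these genes because they carry letters that E2F factors are known to bind, and because Orc1 and Orc3 among them had the highest and the lowest difference at 5 days, with the others between. Windows of 60 bases are taken from RefSeq promoters on build GRCm38.p6, printed 5′ to 3′ on the strand of the gene, with the E2F letters in capitals. The window of Orc1, the gene with the highest difference at 5 days, lies at chr4:108579394-108579453 on the plus strand and ends at the base before the start site. That of Mcm5 lies at chr8:75109330-75109389 (plus), that of Mcm6 at chr1:128359782-128359841 (minus) and that of Pola1 at chrX:93632260-93632319 (minus). Cdc6 is shown from chr11:98907987-98908046 (plus), and Orc3, whose level at 5 days lay at that of untreated spleens, from chr4:34614950-34615009 (minus).
Orc1: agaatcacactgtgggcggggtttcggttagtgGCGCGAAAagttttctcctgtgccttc
Mcm5: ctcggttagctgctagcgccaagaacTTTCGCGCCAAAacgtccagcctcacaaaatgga
Mcm6: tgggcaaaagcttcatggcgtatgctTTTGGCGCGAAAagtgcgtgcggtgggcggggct
Pola1: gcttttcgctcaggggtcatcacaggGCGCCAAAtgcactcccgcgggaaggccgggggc
Cdc6: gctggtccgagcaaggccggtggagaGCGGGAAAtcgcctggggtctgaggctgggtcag
Orc3: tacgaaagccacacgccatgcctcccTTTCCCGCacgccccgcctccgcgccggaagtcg
In Mcm5 and Mcm6 2 matches on opposite strands overlap. The searched letters were TTT, then CC, CG, GC or GG, then CGC, on both strands, over 250 bases before and 50 bases from each start site. They occurred in 14 of the 39 replication genes found in the promoter table (35.9%), against 704 of 27025 genes of that table (2.60%). CCAAT, on both strands, occurred in 23 of the 39 (59.0%), against 41.1% of all genes, and both kinds of letters in 8 (20.5%), against 1.26%. Median differences between 5 days and untreated spleens were 0.85 for the 14 genes with E2F letters, range -0.03 to 1.87, and 1.06 for the 25 without, range 0.10 to 1.59. These ranges overlapped. A match is a run of letters in a reference sequence, not a measured binding site.

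**Figure D1:**
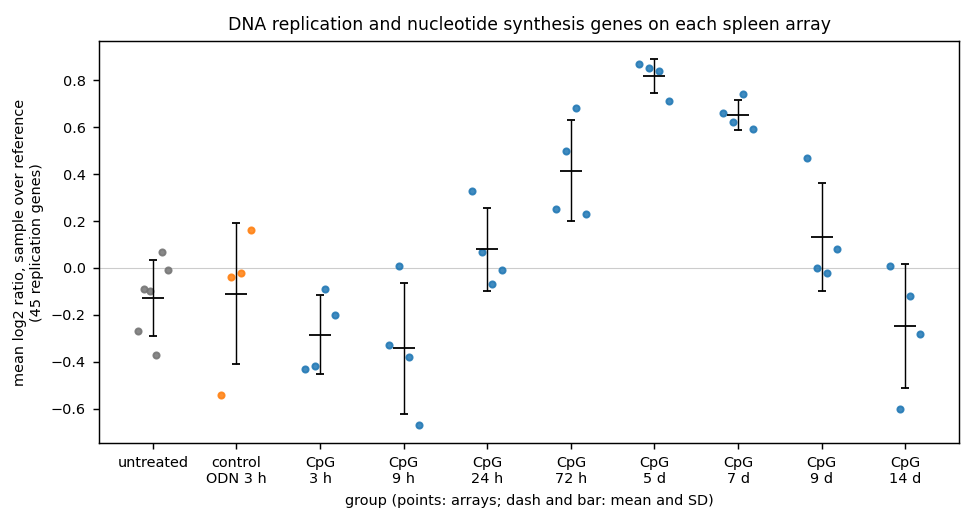
Mean log2 ratio (spleen over reference) of the 45 replication genes measured on all arrays, for each array (points), with the mean and SD of each group (dash and bar), in untreated, control ODN and CpG spleens by time. The 4 arrays at 5 days (0.71 to 0.87) and the 4 at 7 days (0.59 to 0.74) lie above every array of the untreated, control ODN, 3 h, 9 h, 24 h, 9 day and 14 day groups.

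The mean log2 ratio of the 45 genes measured on all arrays gives the course in outline. It was -0.13 ± 0.16 in untreated spleens (SD, n = 6) and -0.11 ± 0.30 after control ODN (n = 4). After CpG ODN it was -0.28 ± 0.17 at 3 h, -0.34 ± 0.28 at 9 h, 0.08 ± 0.18 at 24 h, 0.41 ± 0.22 at 72 h, 0.82 ± 0.07 at 5 days, 0.65 ± 0.07 at 7 days, 0.13 ± 0.23 at 9 days and -0.25 ± 0.26 at 14 days (SD, n = 4 each). The set was thus highest at 5 and 7 days, while the arrays at 3 h, 9 h, 24 h, 9 days and 14 days overlapped the untreated ones. Single arrays at 5 days read 0.71, 0.87, 0.85 and 0.84, those at 7 days 0.66, 0.62, 0.74 and 0.59, and untreated arrays between -0.37 and 0.07 with a median of -0.10. No array at 5 or 7 days overlapped an untreated one.

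Differences below are log2 differences between group means with their standard error (SE), from a limma fit of all 42 arrays. A gene is said to have risen or fallen where its p, adjusted by the Benjamini-Hochberg method over all genes tested in the comparison, was under 0.05. All comparisons with untreated spleens share the same 6 arrays. In whole spleen RNA, a change in the share of cells that express a gene and a change in RNA per cell cannot be told apart. Over the 8 CpG times together the moderated F test passed for 45 of the 46 replication genes, against 62.9% of 14557 genes tested, with Orc4 as the exception (adjusted p = 0.133).

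At 5 days 42 of the 46 replication genes rose and none fell, while 17.5% of the 15006 genes tested rose. Their median difference was 0.95, against 0.01 for all genes, and 45 of the 46 differences were positive. For 37 of the 46 every array at 5 days lay above every untreated array, as it did for 13.6% of genes. The highest differences were those of Orc1, the regulated subunit of the origin recognition complex (1.87 ± 0.33, adjusted p = 6.36e-05), Prim2, the large subunit of primase (1.85 ± 0.29, adjusted p = 9.14e-06), and Mcm2 (1.59 ± 0.29, adjusted p = 6.6e-05). Pole, the catalytic subunit of polymerase epsilon, followed at 1.47 ± 0.23, Cdc45 at 1.44 ± 0.25 and Mcm5 at 1.33 ± 0.23. The genes that did not pass were Cdc7 (0.33 ± 0.15), the clamp loader subunit gene Rfc5 (0.27 ± 0.16), Orc4 (0.10 ± 0.14) and Orc3 (-0.03 ± 0.12). Leaving out any single array gave between 38 and 42 genes called. Database numbers in the array titles fall into 10 runs, separated by gaps, and whether a run stands for printing, hybridisation or entry into the database is not given. No run held both groups, so run and time cannot be told apart at 5 days. With run as a random block 42 genes were called. The correlation estimated within runs was 0.024, so that fit nearly repeats the main one and cannot separate the 2.

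At 7 days 36 of the 46 rose and none fell, while 8.68% of the 15200 genes tested rose. The median difference was 0.78, against -0.02 for all genes. Groups without overlap were found for 32 of the 46, against 8.73% of genes. Orc1 (1.78 ± 0.33), Prim2 (1.44 ± 0.29), Mcm2 (1.26 ± 0.29), Cdc45 (1.23 ± 0.25), Dbf4, the activating subunit of the Cdc7 kinase (1.23 ± 0.23), and Orc6 (1.22 ± 0.23) had the highest differences, with adjusted p from 0.000303 to 0.00203. Cdc7 itself rose at this time (0.49 ± 0.15, adjusted p = 0.0179). Rfc3 (0.41), Rrm2 (0.36), Rpa3 (0.31), Rfc5 (0.29), Rfc1 (0.27), Pold1 (0.24), Rpa1 (0.23), Pold2 (0.19), Orc3 (0.16) and Orc4 (-0.09) did not pass.

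**Figure D2:**
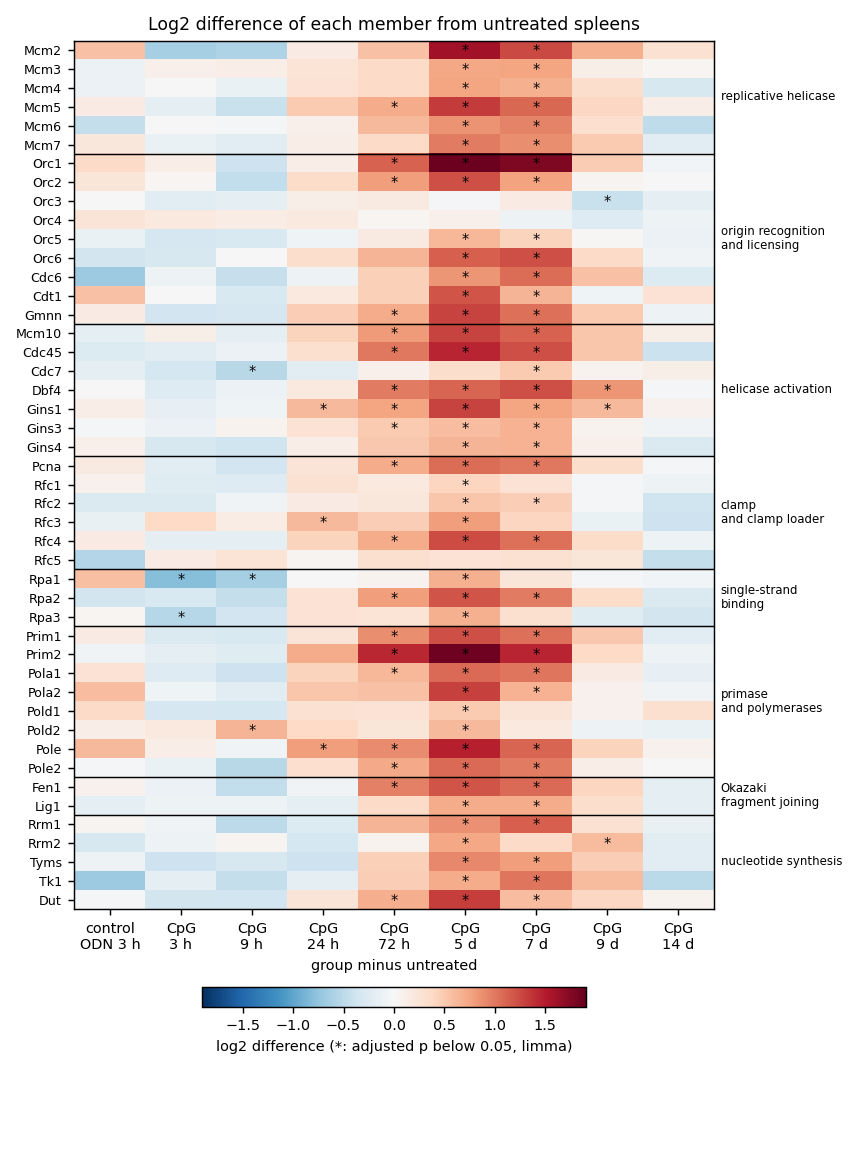
Log2 difference from untreated spleens (colour) for each of the 46 measured replication genes (rows, by role) after control ODN and at the 8 CpG times (columns), with a star where the limma test passed. Stars stand in 42 rows at 5 days, 36 at 7 days and 19 at 72 h, and in none at 14 days or after control ODN.

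The replicative helicase was among the parts of the machinery that rose as a whole. All 6 MCM ring genes (Mcm2 to Mcm7) rose at 5 days (0.74 to 1.59) and at 7 days (0.68 to 1.26), and Mcm5 alone at 72 h (0.71 ± 0.23). Mcm2 read 1.63, 1.84, 2.01 and 3.10 at 5 days and 1.43, 1.83, 2.31 and 1.66 at 7 days, against 0.07 to 0.97 with a median of 0.58 in untreated spleens. All 8 arrays at these times lay above every untreated one. At 14 days Mcm2 read 1.09, 0.29, 1.27 and 0.69, which overlapped the untreated arrays.

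Of the 9 origin recognition and licensing genes 7 rose at both 5 and 7 days, the 2 others being Orc3 and Orc4. Orc1 read 1.17, 1.78, 2.48 and 1.52 at 5 days and 1.44, 1.82, 1.78 and 1.56 at 7 days, against -0.58 to 0.28 with a median of -0.12 in untreated spleens. Every one of these arrays lay above the untreated range. Among the subunits of the origin recognition complex, which were not tested against each other, Orc1, Orc2, Orc5 and Orc6 rose at 5 days (0.63 to 1.87), while Orc4 read -0.03, 0.13, -0.06 and -0.56 and Orc3 -0.22, 0.28, 0.49 and 0.07. Both Orc3 and Orc4 had 2 features that pointed in opposite directions at 5 days, at -0.43 and 0.38 for Orc3 and at 0.33 and -0.14 for Orc4, so their averages may not stand for either feature.

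Geminin, the product of Gmnn, binds Cdt1 and keeps origins from being licensed again in the same cycle, so the pair was followed together. Gmnn read 1.06, 1.30, 1.14 and 1.22 at 5 days and 0.96, 0.98, 1.04 and 0.77 at 7 days, against -0.81 to 0.39 with a median of 0.02 in untreated spleens. It had risen by 72 h (0.71 ± 0.21, adjusted p = 0.0196), stood at 1.28 ± 0.21 at 5 days and at 1.04 ± 0.21 at 7 days. Cdt1 read 0.66, 1.00, 0.66 and 0.62 at 5 days, against -0.92 to -0.09 with a median of -0.40 in untreated spleens. Its differences were 0.45 at 72 h, which did not pass, 1.19 ± 0.22 at 5 days and 0.65 ± 0.22 at 7 days (adjusted p = 0.0381). At 9 days Cdt1 read -0.52, -0.53, -0.20 and -0.87, within the untreated range.

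Among the 7 measured helicase activation genes, 5 rose at 72 h, 6 at 5 days and all 7 at 7 days. Cdc45, which travels with the MCM ring at the fork, read 0.60, 0.74, 0.35 and 0.06 at 5 days and 0.48, 0.21, 0.14 and 0.08 at 7 days, against -1.43 to -0.54 with a median of -0.97 in untreated spleens. At 72 h it read -0.05, 0.33, -0.27 and -0.01, also above all untreated arrays (1.00 ± 0.25, adjusted p = 0.00591). The groups at 72 h, 5 days and 7 days therefore did not overlap the untreated group. Of the GINS genes Gins1 was called at the most times, at 24 h (0.61 ± 0.19), 72 h (0.75 ± 0.19), 5 days (1.28 ± 0.19), 7 days (0.75 ± 0.19) and 9 days (0.61 ± 0.19). At 24 h Gins1 read 0.04, 0.15, -0.01 and 0.95, its difference was 0.38 without replicate 4, and it was not called without that array or with run as a fixed block.

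The sliding clamp and its loader moved unevenly. Pcna read 0.98, 1.21, 1.23 and 0.78 at 5 days and 1.20, 1.09, 0.91 and 0.78 at 7 days, against -0.41 to 0.26 with a median of 0.13 in untreated spleens, with no overlap. Its differences were 0.71 ± 0.21 at 72 h, 1.06 ± 0.21 at 5 days and 1.00 ± 0.21 at 7 days. Of the 5 RFC genes Rfc4 had the highest difference at 5 days (1.24 ± 0.23), and Rfc1, the large subunit, rose by 0.41 ± 0.13 at that time alone. Rfc5 did not pass against untreated spleens at any time.

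All 3 RPA genes rose at 5 days, Rpa2 by 1.19 ± 0.20, Rpa3 by 0.68 ± 0.18 and Rpa1, which carries the main DNA-binding domains, by 0.67 ± 0.17. Rpa2 alone of the 3 passed at 7 days as well, at 0.99 ± 0.20. It read 1.52, 1.57, 1.94 and 1.68 at 5 days and 1.38, 1.42, 1.54 and 1.56 at 7 days, against 0.19 to 0.74 with a median of 0.47 in untreated spleens. These groups were far apart relative to their spread, and the 72 h arrays (0.92, 1.30, 1.78 and 1.10) also lay above the untreated ones.

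Among primase and polymerase genes all 8 rose at 5 days (0.50 to 1.85) and 6 at 7 days. Prim2 read 1.18, 1.67, 1.81 and 1.72 at 5 days, 1.48, 1.14, 1.18 and 0.96 at 7 days, and -0.67 to 0.11 with a median of -0.20 in untreated spleens. The arrays at 72 h, 0.78, 1.19, 2.22 and 0.49, were the most scattered of these and still above the untreated range. The catalytic primase gene Prim1 rose at the same 3 times (0.88 ± 0.22, 1.23 ± 0.22 and 1.04 ± 0.22). Pold1 and Pold2, of polymerase delta, had smaller differences at 5 days (0.50 ± 0.17 and 0.61 ± 0.18) than Pole (1.47 ± 0.23), though the differences between these genes were not tested.

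Fen1, the flap endonuclease, read 1.22, 1.86, 1.97 and 2.38 at 5 days and 1.48, 1.71, 2.02 and 1.75 at 7 days, against 0.42 to 1.19 with a median of 0.61 in untreated spleens. The lowest 5 day array lay just above the highest untreated one. Its differences were 0.96 ± 0.24 at 72 h, 1.19 ± 0.24 at 5 days and 1.07 ± 0.24 at 7 days. Lig1, the replicative ligase gene, rose at 5 days (0.71 ± 0.16) and 7 days (0.70 ± 0.16).

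All 5 nucleotide synthesis genes of the set rose at 5 days (0.71 to 1.32) and 4 at 7 days. Dut, which encodes dUTPase and so keeps uracil out of DNA, read 1.27, 1.61, 1.65 and 1.82 at 5 days, against 0.01 to 0.63 with a median of 0.25 in untreated spleens. At 7 days it read 0.66, 0.76, 1.01 and 0.98, above the untreated range but below all 4 arrays at 5 days. Tyms, thymidylate synthase, read 0.86, 0.97, 0.59 and 0.72 at 5 days and 0.81, 0.81, 0.69 and 0.34 at 7 days, against -0.48 to 0.21 with a median of -0.12 in untreated spleens. Neither group overlapped the untreated arrays. Tyms had 4 features, of which 3 had differences of 1.07, 1.40 and 1.18 at 5 days and the other -0.01, so its average of 0.91 ± 0.18 is lower than those 3.

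Rrm2, the subunit of ribonucleotide reductase that is made in S phase, was called at 5 and 9 days. It read 1.01, 0.73, 0.31 and 0.67 at 5 days, 0.32, 0.26, 0.36 and 0.29 at 7 days and 0.28, 0.48, 0.76 and 0.65 at 9 days, against -0.23 to 0.37 with a median of -0.15 in untreated spleens. The 7 day arrays lay within the untreated range, and those at 5 and 9 days each had 1 array inside it. Rrm2 rose at 5 days (0.74 ± 0.16, adjusted p = 0.000594) and 9 days (0.60 ± 0.16, adjusted p = 0.0106) but did not pass at 7 days (0.36 ± 0.16, adjusted p = 0.125), and 7 days was not tested against 5 or 9 days. Its 4 features had differences of 0.15, 0.25, 0.52 and 0.54 at 7 days. Rrm1, the large subunit, rose at 5 days (0.87 ± 0.25) and 7 days (1.13 ± 0.25), and the thymidine kinase gene Tk1 likewise (0.71 ± 0.25 and 1.02 ± 0.25).

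**Figure D3:**
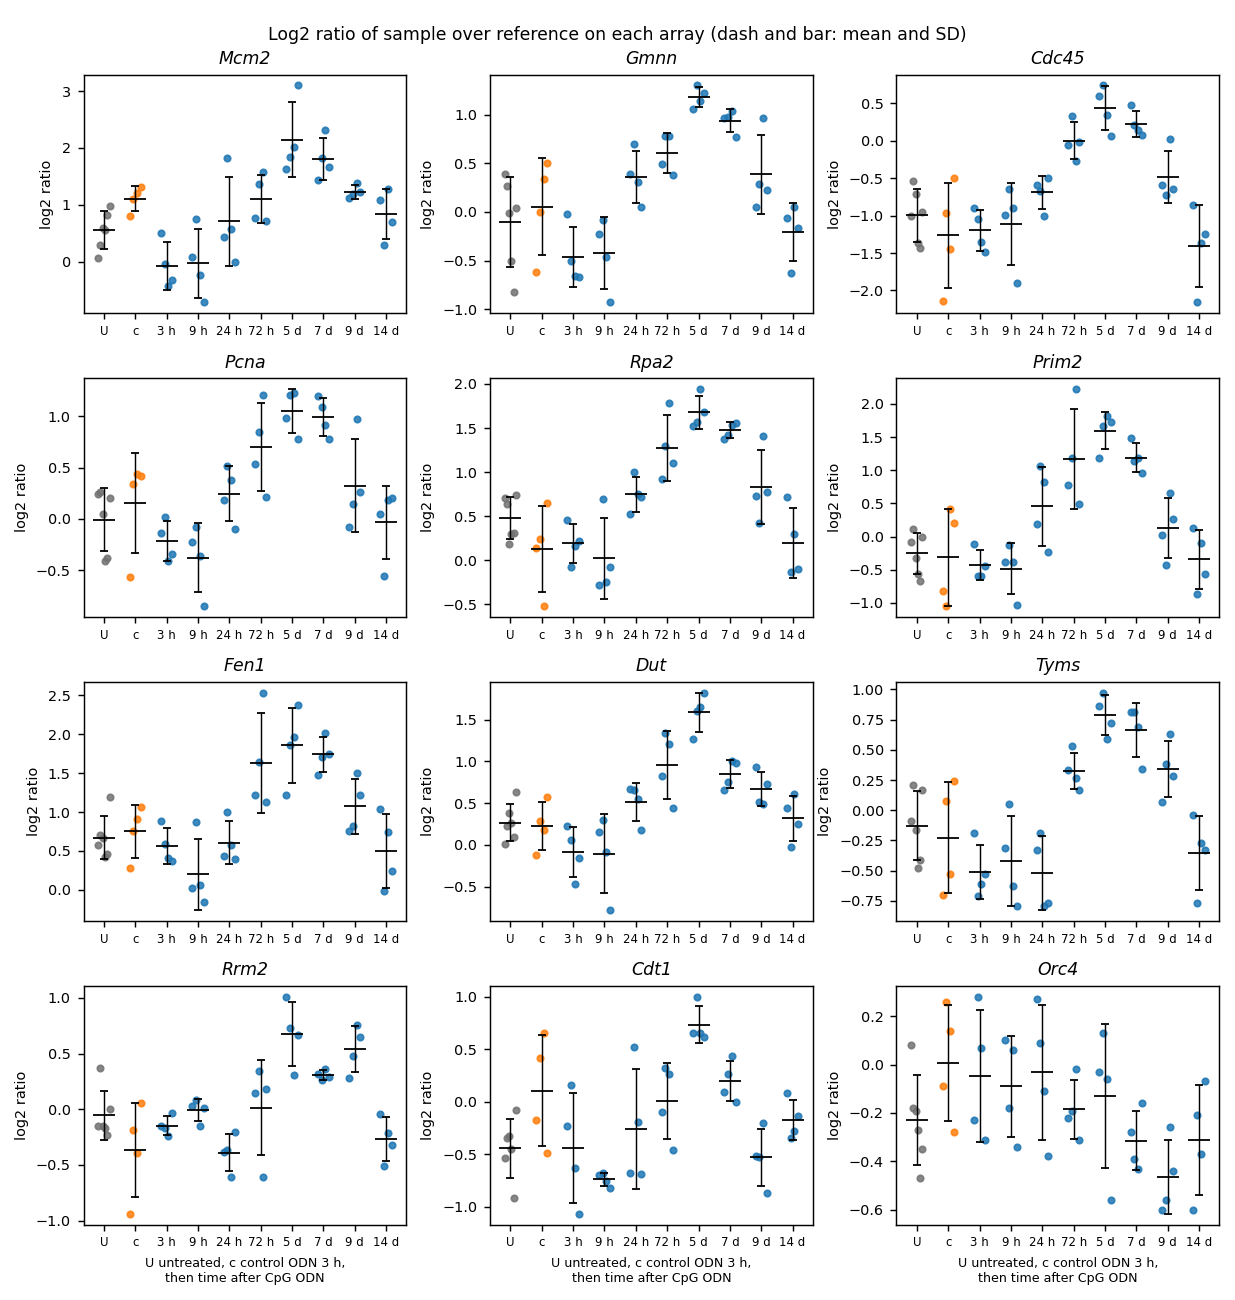
Log2 ratio of spleen over reference on each array (points), with mean and SD (dash and bar), for 12 replication genes in untreated (U) and control ODN (c) spleens and at the 8 CpG times. Gmnn, Pcna, Rpa2, Prim2 and Tyms stand above all untreated arrays at 5 and 7 days, Rrm2 reads 0.28 to 0.76 at 9 days, and the Orc4 groups overlap at 5 days.

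In the first hours few replication genes were called, and more lay below the untreated level than above it. At 3 h 2 of 46 fell and none rose, while 3.93% of the 15253 genes tested fell. They were Rpa1 (-0.81 ± 0.17, adjusted p = 0.000643) and Rpa3 (-0.54 ± 0.18, adjusted p = 0.0492). Rpa1 read -0.70, -0.32, -0.92 and -0.95 at 3 h, against -0.11 to 0.27 with a median of 0.07 in untreated spleens, with no overlap. The share of the set called is close to that of all genes, the median difference was -0.18 (all genes -0.02), and 11 of 46 differences were positive. Rpa3 was lost when any of 6 single arrays was left out (untreated replicates 1, 2 and 3, and CpG 3 h replicates 1, 3 and 4), leaving 1 gene called. In the 1 run that held both groups, 40 of 45 genes were lower on 2 CpG 3 h arrays than on 1 untreated array (median -0.48). With run as a fixed block no replication gene was called, while 2.81% of all genes tested were, against 11.6% in the main fit.

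Against the control ODN at 3 h, the comparison that holds injection and time alike, CpG ODN spleens had 1 gene higher and 4 lower, while 20.7% of the 15068 genes tested changed in either direction. Rpa1 fell by 1.38 ± 0.19 (adjusted p = 6.26e-07), Mcm2 fell by 1.19 ± 0.31 (adjusted p = 0.006), and Pold1 and Rpa3 fell by 0.70 ± 0.19 and by 0.58 ± 0.20. Rfc5 rose by 0.71 ± 0.18 (adjusted p = 0.0043), but only 1 of its 2 features was higher after CpG ODN. Relative to untreated spleens that feature read 0.53 after CpG ODN and -1.01 after control ODN, and the other -0.21 and -0.08. Rpa1 read -0.70, -0.32, -0.92 and -0.95 after CpG ODN, against 0.56, 0.84, 0.88 and 0.35 after control ODN, and Mcm2 read 0.50, -0.04, -0.43 and -0.33, against 0.80, 1.10, 1.21 and 1.32. Neither gene overlapped between the groups. Untreated means lay between those after CpG ODN and after control ODN. They were 0.55 for Mcm2 (-0.08 and 1.11), -0.21 for Pold1 (-0.53 and 0.16) and 0.09 for Rpa1 (-0.72 and 0.66). Mcm2 and Pold1 were not called at 3 h against untreated spleens. The number of genes called between CpG ODN and control ODN was 3 when CpG 3 h replicate 4 was left out and 9 when control ODN replicate 4 was. The 2 groups lie in different runs, so run and treatment cannot be told apart here.

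Control ODN alone gave no call against untreated spleens, while 3.52% of the 15084 genes tested changed. Limma's unadjusted p was under 0.05 for 8 of the 46, the median difference was 0.03 (all genes 0.06) and 24 of 46 differences were positive. Without control ODN replicate 4, 5 genes were called, and 0 to 2 were called under the other settings tried on all arrays. On control ODN replicate 1 the mean of the 45 genes was -0.54, against -0.04, -0.02 and 0.16 on the other arrays of that group. Control ODN and untreated arrays lie in different runs, so run and treatment cannot be told apart in this comparison.

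At 9 h 1 gene rose and 2 fell, while 8.52% of the 15129 genes tested changed. Pold2, a small subunit of polymerase delta, rose by 0.64 ± 0.18 (adjusted p = 0.0153), and Rpa1 and Cdc7 fell by 0.63 ± 0.17 and by 0.52 ± 0.15 (adjusted p = 0.013 and 0.0179). Pold2 read -0.68, 0.35, -0.31 and -1.32 at 9 h, its difference was 0.36 without replicate 2, and it was not called without replicate 2 or replicate 3. Without arrays with over 1000 missing values, replicate 2 among them, 6 genes fell and none rose, while 6.96% of all genes tested changed in either direction. The median difference was -0.27, and 7 of 46 differences were positive. Without CpG 9 h replicate 3, 1 gene was called. At 24 h Pole (0.80 ± 0.23), Rfc3 (0.62 ± 0.19) and Gins1 (0.61 ± 0.19) rose and none fell, while 8.03% of the 15190 genes tested rose. The median difference was 0.25 with 36 of 46 positive, and 1 gene was called without CpG 24 h replicate 2 or without replicate 3. With run as a fixed block no replication gene was called at 9 h or 24 h, where 0.961% and 0.612% of all genes tested were. The median differences in that fit were -0.71 and -0.19, so the sign at 24 h turned. That fit links 9 h and 24 h to untreated spleens only through the 3 h group and the 1 untreated array in its run, replicate 2.

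At 72 h 19 of the 46 rose and none fell, while 8.94% of the 15161 genes tested rose. All 46 differences were positive, with a median of 0.53 (all genes 0.02). Of the 45 genes with a value on all arrays of both groups 12 had groups without overlap, against 7.32% of genes. Prim2 (1.43 ± 0.29), Orc1 (1.12 ± 0.33), Cdc45 (1.00 ± 0.25), Dbf4 (0.98 ± 0.23), Fen1 (0.96 ± 0.24) and Pole (0.90 ± 0.23) had the highest differences, with adjusted p from 0.000813 to 0.0201. The number called depended on single arrays: it was 4 without CpG 72 h replicate 3, which had the highest mean of the 45 genes (0.68, the others 0.25, 0.50 and 0.23), and 10 without replicate 2. Orc1 had a difference of 0.74 without replicate 3. The number called was 36 with array weights (38.2% of all genes called), under which replicate 3 had a weight of 0.329. It was 2 without arrays with over 1000 missing values (5.77% of all genes called). The median difference stayed between 0.45 and 0.61 whichever array was left out.

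At 72 h relative to 24 h Fen1 (1.03 ± 0.26), Rrm1 (0.91 ± 0.27) and Tyms (0.84 ± 0.20) rose, while 3.60% of the 15086 genes tested rose, and the median difference was 0.29. Rrm1 had a difference of 0.54 without CpG 72 h replicate 3 and was not called. At 5 days relative to 72 h Rrm2 (0.67 ± 0.18) and Orc5 (0.46 ± 0.13) rose, while 1.24% of the 14926 genes tested rose. In that comparison 44 of 46 differences were positive with a median of 0.39. Neither gene was called without CpG 5 day replicate 2 or without replicate 4, and 1 was called without CpG 5 day replicate 3 or without CpG 72 h replicate 1. No run held both 24 h and 72 h arrays, or both 72 h and 5 day arrays, so run and time cannot be told apart in these comparisons. The highest difference from untreated spleens fell at 5 days for 32 of the 46 genes, at 7 days for 10, at 72 h for 2, at 24 h for 1 and at 9 h for 1.

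At 9 days fewer replication genes were called. Dbf4 (0.84 ± 0.23), Gins1 (0.61 ± 0.19) and Rrm2 (0.60 ± 0.16) rose and Orc3 fell by 0.42 ± 0.12, while 13.5% of the 15142 genes tested changed in either direction. The median difference was 0.33, 37 of 46 differences were positive, and limma's unadjusted p was under 0.05 for 13. A fit of the 2 groups alone called 8 higher and 1 lower, while 15.6% of all genes tested changed in either direction. With all groups in the fit, 1 gene was called without CpG 9 day replicate 3 or without replicate 4. On replicate 3 the mean of the 45 genes was 0.47, against 0.00, -0.02 and 0.08 on the other 9 day arrays. At 14 days no gene was called, while 4.54% of the 15003 genes tested changed, and limma's unadjusted p was under 0.05 for 4 of the 46. No alternative setting and no array left out gave a call at 14 days. The median difference was -0.10 (all genes 0.01). No run held untreated arrays together with 9 day or 14 day arrays, so run and time cannot be told apart at these times either.

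In the comparison of 9 days with 5 days, added after the data had been seen, 31 of the 46 fell and none rose, while 9.04% of the 14938 genes tested fell. Groups without overlap were found for 26 of the 46, against 11.5% of genes, and all 46 differences were negative, with a median of -0.69. Prim2 fell by 1.47 ± 0.31, Orc1 by 1.38 ± 0.37, Cdt1 by 1.27 ± 0.24, Pola2 by 1.21 ± 0.25, Orc2 by 1.17 ± 0.23 and Pole by 1.05 ± 0.25 (adjusted p from 0.0007 to 0.00948). Rfc5 (-0.04), Tk1 (-0.11) and Rrm2 (-0.14) had the smallest differences. The count was 16 without CpG 9 day replicate 2, 20 without replicate 1 and 20 without CpG 5 day replicate 2. With run as a fixed block no replication gene was called, but only 0.103% of all genes tested were, against 15.8% in the main fit. Within the 1 run that held both times, 44 of 45 genes were lower on 2 arrays at 9 days than on 1 array at 5 days (median -0.72).

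All arrays of 72 h, 7 days, 14 days and control ODN belong to 1 of the 10 runs of database numbers, while the untreated arrays belong to others. Against untreated spleens, run and time cannot be told apart at 72 h and 7 days, so the same-run comparisons are given beside them. Within the run 37 of the 46 rose at 7 days relative to 14 days, while 10.8% of the 14965 genes tested rose, and 40 of the 46 had groups without overlap, against 13.1% of genes. The median difference was 0.97 (all genes -0.03), and the count was 17 without arrays with over 1000 missing values, which leaves 2 arrays at 14 days. Orc1 (1.83 ± 0.37), Cdc45 (1.64 ± 0.27), Tk1 (1.53 ± 0.28), Prim2 (1.53 ± 0.31), Mcm6 (1.42 ± 0.28) and Cdc6 (1.32 ± 0.32) had the highest differences, with adjusted p from 7.8e-05 to 0.00321. Relative to untreated spleens the Mcm6 features read 1.03, 0.95 and 0.84 at 7 days and -0.11, -1.16 and -0.17 at 14 days. Those of Tk1 read 1.16, 1.10 and 0.80 at 7 days and -0.31, -0.99 and -0.23 at 14 days. In each gene 1 feature thus lay lowest at 14 days and widened the average difference. Cdc45 read 0.48, 0.21, 0.14 and 0.08 at 7 days, against -0.86, -2.16, -1.37 and -1.25 at 14 days. Prim2 read 1.48, 1.14, 1.18 and 0.96, against 0.13, -0.86, -0.09 and -0.56, so neither overlapped.

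At 72 h relative to 14 days in the same run 31 of the 46 rose, while 15.5% of the 14906 genes tested rose, with a median difference of 0.69. Prim2 (1.52 ± 0.31), Cdc45 (1.41 ± 0.27), Orc1 (1.17 ± 0.37), Fen1 (1.13 ± 0.26), Mcm6 (1.09 ± 0.28) and Prim1 (1.08 ± 0.25) led, with adjusted p from 0.000212 to 0.0146. The count was 16 without CpG 14 day replicate 2 and 2 without arrays with over 1000 missing values, which leaves 2 arrays at 14 days. At 72 h relative to control ODN in that run 19 of the 46 rose, while 7.61% of the 15002 genes tested rose, with a median difference of 0.55. Prim2 (1.48 ± 0.31), Cdc45 (1.26 ± 0.27), Tk1 (1.16 ± 0.28), Rpa2 (1.15 ± 0.22), Cdc6 (1.15 ± 0.32) and Mcm6 (1.06 ± 0.28) led. After control ODN the features of Mcm6 read 0.15, -1.50 and 0.01 relative to untreated spleens, and those of Tk1 0.0, -1.26 and -0.81. The count was 7 without control ODN replicate 1 and 12 without CpG 72 h replicate 2, and 2 with a fit of those groups alone.

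**Figure D4:**
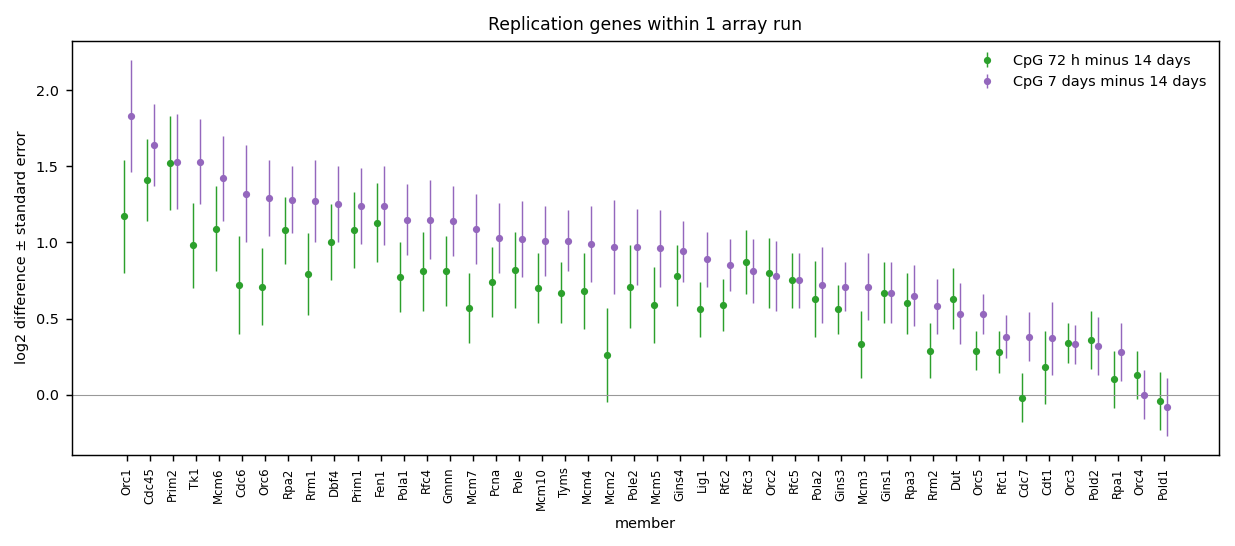
Log2 difference with its standard error for each replication gene (horizontal axis, by the 7 day difference) between 72 h and 14 days (green) and between 7 and 14 days (purple), all arrays being of 1 run of database numbers. Each series is above 0 for 44 of 46 genes, and Orc1, Cdc45 and Prim2 are among the 4 highest in each.

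Genes of the set resembled one another in their course. Over the 10 group means Pearson's r between a gene and the mean of the others was above 0.9 for 27 of the 45 genes measured on all arrays and above 0.8 for 36. With the mean of the set, 2.20% and 6.43% of the 12543 other genes passed these values. All group means share the common reference and the scaling of the arrays, and r is given as a description. Rfc4, Prim1 and Pcna had r of 0.99, while Orc4 (-0.24), Pold2 (0.27), Orc3 (0.46) and Rfc5 (0.47) were the least alike. Outside the set and the lists below, the genes most like its mean were Zranb3 (r 0.989), an annealing helicase gene, Cenph (0.985), a kinetochore gene, Zwilch (0.984), also of the kinetochore, the centriole gene Poc1a (0.983), Ercc6l (0.983), a helicase gene of mitosis, Tmem14c (0.982), Melk (0.981), Cenpq and Cenpn (0.979) and Gen1 (0.978), over 10 group means.

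Of the 17 genes with several features, the features of 13 were all higher than in untreated spleens at 5 days and those of 4 differed in sign (Cdc7, Orc3, Orc4 and Tyms). At 7 days only those of Orc3 differed in sign, and at 72 h those of 5 (Cdc7, Orc3, Orc5, Rrm2 and Tyms). Rrm2 had 4 features, with differences of 0.70, 1.06, 0.61 and 0.58 at 5 days.

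Other genes of the cell cycle were read alongside the set. Of 27 genes that regulate entry into S phase, 17 rose and 4 fell at 5 days and 16 rose and 3 fell at 7 days, with medians of 0.73 and 0.47. The shares of all genes tested that rose were 17.5% at 5 days and 8.68% at 7 days, and the shares that fell were 13.4% and 6.89%. Ccne2 (cyclin E2, 1.68 ± 0.35), E2f8 (1.48 ± 0.29), E2f4 (1.46 ± 0.25) and Ccna2 (cyclin A2, 1.45 ± 0.29) led at 5 days, while the D cyclin genes Ccnd2 and Ccnd1 fell by 1.19 ± 0.24 and by 0.71 ± 0.14. E2f1, an activating E2F, had a mean level of 0.41 ± 0.33 at 5 days and -1.50 ± 0.26 at 3 h, against -0.76 ± 0.18 in untreated spleens (SD, n = 4, 4 and 6). It rose at 5 days (1.17 ± 0.21) and 7 days (0.75 ± 0.21, adjusted p = 0.0133), and at 3 h it fell by 0.73 ± 0.21 (adjusted p = 0.0175).

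At 3 h the same list had 4 genes up and 4 down, while 7.70% of all genes tested rose and 3.93% fell. Myc, a driver of cell growth, rose by 1.49 ± 0.13 (adjusted p = 6.15e-12), Ccnd2 by 1.41 ± 0.24, the cyclin-dependent kinase inhibitor Cdkn1a by 0.74 ± 0.17 and Rbl1 by 0.70 ± 0.17. Besides E2f1, Cdkn2c and Cdkn1b each fell by 0.56, with SE of 0.18 and 0.15, and Cdk2 fell by 0.45 ± 0.14. Myc therefore stood at its highest at 3 h, when the mean of the replication genes was -0.28, and was at 0.73 ± 0.13 above untreated spleens at 5 days.

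Of 34 other measured fork and checkpoint genes (35 listed), 18 rose and 2 fell at 72 h, 23 rose at 5 days and 22 at 7 days with none falling, with medians of 0.48, 0.89 and 0.62. Top2a, a topoisomerase (1.76 ± 0.28), Asf1b, a histone chaperone (1.69 ± 0.21), Dna2 (1.61 ± 0.21) and Chtf18 (1.45 ± 0.24) led at 5 days. Dna2, a nuclease and helicase gene, fell at 3 h by 0.81 ± 0.21 and at 9 h by 0.71 ± 0.21. Of 27 measured mitosis genes (30 listed), 21 rose at 72 h, 26 at 5 days, 27 at 7 days and 14 at 9 days, with medians of 0.85, 1.26, 1.31 and 0.71. Beside both lists, 8.94% of all genes tested rose at 72 h, 17.5% at 5 days and 8.68% at 7 days. The proliferation marker Mki67 had its highest difference at 7 days (2.10 ± 0.41, adjusted p = 0.000481), was at 1.00 ± 0.41 at 5 days (adjusted p = 0.0587), and at 24 h it fell by 1.49 ± 0.41 (adjusted p = 0.0138). At 9 days 14 of 27 mitosis genes and 3 of 46 replication genes were above the threshold, where 8.40% of all genes tested rose, and the contrast between the lists was not itself tested.

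Other nucleotide genes moved in both directions. Of 29 measured (36 listed), 13 rose and 4 fell at 5 days and 4 rose and 4 fell at 7 days, with medians of 0.38 and 0.12. Of all genes tested, 17.5% rose and 13.4% fell at 5 days, and 8.68% rose and 6.89% fell at 7 days. The share of the list that fell at 5 days was thus near that of all genes. Mthfd2 (1.40 ± 0.21), Mthfd1 (1.11 ± 0.26), Gmps (1.08 ± 0.20) and Gart (1.02 ± 0.17), of folate-dependent one-carbon metabolism and purine synthesis, led at 5 days. Ctps2, Tk2 and Rrm2b fell by 1.49 ± 0.30, by 1.08 ± 0.21 and by 0.81 ± 0.15. Rrm2b encodes the p53-regulated partner of Rrm1, used outside S phase, and its level was -0.58 ± 0.43 at 5 days, against 0.23 ± 0.16 in untreated spleens (SD, n = 4 and 6). Samhd1, which degrades deoxynucleotides, peaked at 3 h (1.18 ± 0.11, adjusted p = 3.19e-11), was still up at 72 h (0.67 ± 0.11), and did not pass at 5 days (0.14 ± 0.11, adjusted p = 0.351).

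**Figure D5:**
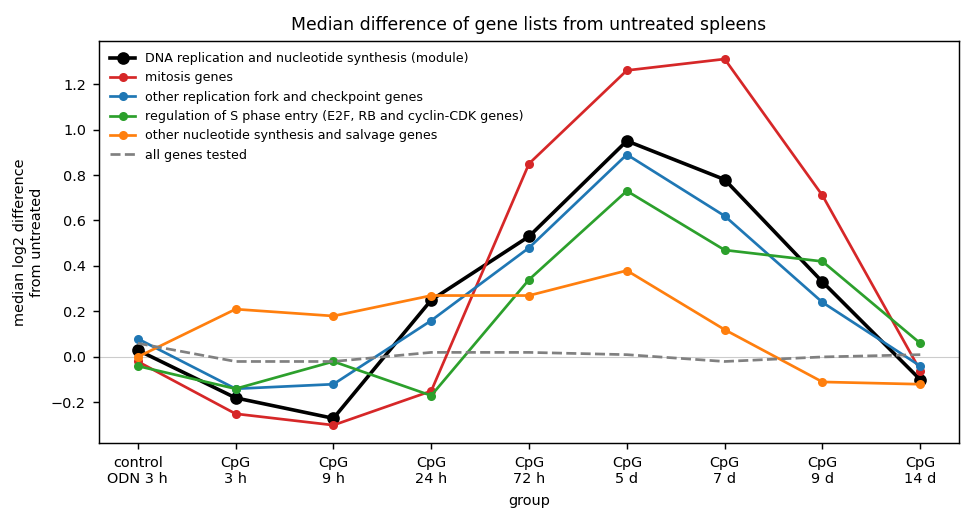
Median log2 difference from untreated spleens of the replication set, of 4 related gene lists and of all genes tested (dashed), after control ODN and at the 8 CpG times. The replication set (0.95), mitosis genes (1.26), fork genes (0.89) and S phase regulators (0.73) are high at 5 days, and the other nucleotide genes (0.38) are lower.

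Several lists of markers of the cells a spleen holds differed from untreated spleens at the same times. The Cd79a level, a B cell marker, was well above the reference in every group (group means 4.84 to 6.78), and the B cell and T cell lists were on average above it as well. At 5 days the 10 B cell markers measured on all arrays (11 listed) averaged 2.12, range 2.05 to 2.15, against 2.81, range 2.53 to 3.11, in untreated spleens, and 6 of 10 fell. The 12 T cell markers (14 listed) averaged 1.03, range 0.87 to 1.17, against 1.78, range 1.47 to 2.01, and 8 of 12 fell and 1 rose, while 13.4% of all genes tested fell at that time. The 9 myeloid progenitor and neutrophil markers (14 listed) averaged 3.42, range 3.18 to 3.60, against 2.13, range 1.70 to 2.56. Of 13 tested, 8 rose and 1 fell, while 17.5% of all genes tested rose at 5 days. Myeloid markers averaged 4.74 at 9 days and 4.29 at 14 days, above their level at 5 days.

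The 11 erythroid precursor markers (16 listed) averaged 2.97 at 24 h, 4.03 at 72 h, 3.81 at 5 days and 4.04 at 9 days, against 3.52 in untreated spleens, and 5 of 13 tested rose and 1 fell at 5 days, with a median difference of 0.05 and a range of -1.48 to 1.95. The 6 megakaryocyte markers (8 listed) averaged 2.65 at 5 days, range 2.39 to 3.08, against 1.77, range 1.57 to 2.00. Stem and progenitor markers averaged 0.37 at 5 days, range 0.24 to 0.48, against 0.70, range 0.58 to 0.89. Germinal centre and plasma cell markers averaged -0.49 against -0.19, and NK and cytotoxic cell markers 2.17 against 2.23. Monocyte and macrophage markers averaged 2.35 against 2.22. The ranges of these last lists overlapped those of untreated arrays. The part of these cell types in the rise of the replication genes was not tested. Pancreas acinar markers ranged from 0.35 to 5.15 over arrays at 5 days and from 0.58 to 5.32 over untreated arrays, and with their mean as a covariate the numbers of replication genes called were 19 at 72 h, 42 at 5 days and 36 at 7 days, as without it.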

How the data were processed

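Per the labels' protocols, TRIzol spleen RNA (Cy5) and universal mouse reference RNA (Cy3) were reverse-transcribed, labelled through aminoallyl dyes and hybridised together. The values used are the log2 ratios the authors deposited for 30601 features on 42 arrays. The sources used here name no background correction or normalization. Values ran from -6.859 to 9.784, from which base 2 was inferred, and the direction was taken from the dyes in the labels and from spleen genes lying high. Array medians were between -0.014 and 0.019, and 173 to 1740 features per array had no value. Precision is limited by the number of arrays.

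Features with 1 gene symbol (23485) were averaged into 15277 genes, 12588 of them on all arrays. One limma fit (limma 3.58.1, R 4.3.3; lmFit and eBayes) of all 42 arrays with 10 group means tested genes with at least 3 values per group, with Benjamini-Hochberg adjustment within a comparison across all genes and a threshold of 0.05. The series calls the arrays independent biological replicates, without saying whether animals were pooled. The p-values set a group difference against the spread between arrays within groups, estimated over all 10 groups.

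The members, lists and rules were chosen with earlier results of these data known. Array values are given for the member with the largest F in each role, the 5 largest F overall and Pcna, Mcm2, Rrm2, Gmnn and Cdt1. In each comparison up to 6 called members per direction, up to 4 per list, the 4 least moving members and 10 most similar genes are named, with Mki67, E2f1, E2f8, Myc, Cdkn1a, Samhd1 and Rrm2b; another gene of this rule is not reported here. Other array values (Gins1, Orc1, Orc3, Pold2, Rpa1) were chosen after they were seen. Alternatives changed threshold, centring, scaling, the filter, features, the arrays fitted, weights, spread, and blocks by replicate number and run (gaps over 12 in the database numbers), and left out each array. Those without arrays with over 1000 missing values, with acinar markers as a covariate, and the 9 against 5 day comparison were added after seeing the data. On simulated data in the 5 day layout (15006 genes) log2 changes of 0.5, 1 and 2 were found for 20.9%, 89.6% and 100% of the altered genes, and 6 of 145 calls were false. In the 3 h layout (15253 genes) these shares were 24.6%, 88.1% and 97%, and 10 of 149 calls were false. The simulated noise was independent between genes and arrays and held no run effects, so these rates need not hold for the measured data. Figures used matplotlib 3.10.9 in python 3.11.15.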

Additional observations from a re-analysis of the deposited data

Results flagged for a closer look

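Of 120 groups of arrays examined, for the mean of the set and 11 genes, 4 held 1 array far from the others of its group, and chance gives about 1 in 20. The mean of the replication genes on CpG 5 day replicate 1 was 0.71, the other 3 arrays reading 0.84 to 0.87. Pcna on control ODN replicate 1 was -0.57, against 0.34 to 0.43 on the others. Fen1 on untreated replicate 6 was 1.19, against 0.42 to 0.71 on the other 5. Cdt1 on CpG 5 day replicate 2 was 1.00, against 0.62 to 0.66 on the others.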

How the results depend on the processing

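Numbers of replication genes called at 5 days (42) and 7 days (36) against untreated spleens stayed within 1.5 times of these under every alternative run. Their median differences, 0.95 and 0.78, changed most when each gene was read from its feature with the smallest p, a choice that favours large differences, to 1.08 and 0.95. Leaving out single arrays gave 38 to 42 genes (medians 0.90 to 1.00) at 5 days and 31 to 36 (0.74 to 0.83) at 7 days. No called gene changed sign. For named genes, 1297 values under alternatives kept direction and call, and 139 kept direction and lost their call.

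At 72 h against untreated spleens the count of 19 was 10 at an adjusted p under 0.01, 36 with array weights (38.2% of all genes called), 2 without arrays with over 1000 missing values, and 4 to 21 with single arrays left out. For 72 h against 14 days (31) it was 15 at 0.01, 2 without those arrays (median 0.39) and 16 to 34 with single arrays left out. For 7 against 14 days (37) it was 17 without those arrays (median 0.73), and for 72 h against control ODN (19) it was 9 at 0.01, 2 in a fit of the 2 groups alone and 7 to 24 with single arrays left out. For 9 against 5 days (31) it was 13 at 0.01, 0 with run as a fixed block (0.103% of all genes called), 15 without those arrays and 16 to 30 with single arrays left out. Fewer arrays enter the fits that leave some out. The causes of the other shifts were not tested.

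At 3 h against untreated spleens (2 genes) 1 was called at 0.01, with the median over features, single features, the 2 groups alone, run as a random block, without those arrays or with acinar markers as a covariate, and 0 with run as a fixed block (median -0.48, 2.81% of all genes called). At 9 h (3 genes) 0 were called at 0.01, 1 in the 2 groups alone and 5 with array weights (12.8% of all genes called). At that time 6 were called without those arrays (6.96% of all genes) and 0 with run as a fixed block (median -0.71, 0.961% of all genes called). At 24 h (3 genes) 0 were called at 0.01, 5 with single features (12.3% of all genes called) and 1 in the 2 groups alone. With run as a fixed block 0 were called at 24 h (median -0.19, the main value being 0.25, 0.612% of all genes called). At 9 days (4 genes) 0 were called at 0.01, 9 in the 2 groups alone (15.6% of all genes called) and 2 with the replicate block. After control ODN (0 genes) 2 were called over genes on all arrays, with array weights or with a robust spread, and 1 with single features. Between 24 h and 72 h (3 genes) 1 was called at 0.01 and 1 in the 2 groups alone. In that comparison 6 were called with single features (5.9% of all genes called) and 7 with array weights (13.3%). Between 72 h and 5 days (2 genes) 0 were called at 0.01, in the 2 groups alone or without those arrays (median 0.51 in the last). With centred arrays, quantile normalization, the median over features, single features, a robust spread or run as a random block 1 was called. With array weights 13 were called, where 13.0% of all genes tested were.

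With single arrays left out the counts were 1 to 2 at 3 h, 1 to 3 at 9 h, 1 to 4 at 24 h, 1 to 4 at 9 days, 0 to 5 after control ODN, 3 to 9 for CpG against control ODN at 3 h, 2 to 4 for 72 h against 24 h and 0 to 3 for 5 days against 72 h. Deviations of same-numbered arrays from their group means correlated by 0.041 on average (63 of 180 pairs over 0.1). Those of other numbers correlated by -0.012 (167 of 612 pairs over 0.1). Whether replicate numbers pair the arrays was not tested. The replicate block moved no other count by over 1.5 times.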
